A study of Mus musculus with 28 samples.

Results

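The genes examined were the 9 autosomal mouse genes for the main writers and erasers of H3K4 methylation, taken by name: *Kmt2a*, *Kmt2b*, *Kmt2c*, *Kmt2d*, *Setd1a* and *Setd1b* (methyltransferases) and *Kdm5a*, *Kdm5b* and *Kdm1a* (demethylases). They are 9 of 20807 autosomal protein-coding genes of the annotation, and all 9 were found in it. They were read in lists of H3K4me3 peaks and H3K27me3 islands obtained by CUT&RUN (CnR), in which an antibody guides a nuclease to the histone mark, from nuclei of medium spiny neurons (MSNs) of the striatum. A2a MSNs express the adenosine A2a receptor and D1 MSNs the dopamine D1 receptor. The A2a nuclei came from Sun1-sfGFP;A2a-cre mice and the D1 nuclei from Sun1-sfGFP;Drd1-cre mice. The mice were male and female, about 8 weeks old, without treatment and on a C57BL/6J background. In both lines the R26-CAG-LSL-Sun1-sfGFP allele tags the nuclear envelope only of cells in which Cre was active, so a group holds the cells that the A2a-cre or Drd1-cre driver marks, and INTACT pulls these nuclei down with an antibody to GFP. Each group had 2 replicates, each from 1 striatum, and 1 list. The H3K27me3 lists are named as merged, and the H3K4me3 lists were taken as pooled from both replicates as well. So 4 lists (A2a and D1, H3K4me3 and H3K27me3) stand for 8 of the 28 samples. The study calls its replicates biological in the methods and technical in the reporting summary. The H3K4me3 lists name no antibody and were taken as those of the Abcam antibody from the study's methods, and the H3K27me3 lists are named for the Active Motif antibody. Libraries of other H3K4me3 and H3K27me3 antibodies were not analysed here.

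H3K4me3 marks the start sites of transcribed and poised genes. It is laid down by multiprotein complexes that are each built around 1 catalytic subunit of the KMT2 or SETD1 family, and taken off by the KDM5 enzymes. KDM1A (LSD1) removes the lower methylation states of the same lysine, and H3K27me3, the mark of Polycomb repression, often covers genes that a cell type keeps silent. The genes of these enzymes are needed in many tissues, and several of them are mutated in human neurodevelopmental disorders.

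All 9 genes had an H3K4me3 peak at the promoter in both lists, and none had an H3K27me3 island at the promoter or in the gene in either list. What varied was the shape and rank of the H3K4me3 peaks. At *Kmt2c* the transcription start site (TSS) lay in a gap between peaks in both lists, and at *Kmt2a* the single A2a peak was split in D1. At *Kmt2a*, *Kmt2c*, *Kmt2d* and *Setd1b* the strongest promoter peak ranked higher in the D1 list than in the A2a list by 21.5 to 26.4 percentile points. With 1 pooled list per group, none of these differences has a replicate check, and the depth of the libraries is not known from the lists. A peak also does not tell what share of the nuclei carries the mark.

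The sequences at the start sites show how far the promoters differ in base composition, which is given beside the peak shapes in what follows. RefSeq promoter sequences (GRCm38.p6, from 250 bases before to 50 after the start) were found for 6 of the 9 genes, *Kmt2a*, *Kmt2c*, *Kmt2d*, *Setd1a*, *Kdm5b* and *Kdm1a*. That of *Setd1a* lies at a start inside the gene, and none was found for *Kmt2b*, *Setd1b* and *Kdm5a*. Printed here are those of *Kmt2c*, whose window falls into the gap between peaks, of *Kmt2a*, whose peak was split in D1, and, with a lower GC share, of *Kdm5b* and *Kdm1a*. Capitals mark the GC box GGGCGG, the core that SP and KLF factors bind, or CCGCCC on the other strand.
Kmt2c (chr5:25498734-25499033, minus strand): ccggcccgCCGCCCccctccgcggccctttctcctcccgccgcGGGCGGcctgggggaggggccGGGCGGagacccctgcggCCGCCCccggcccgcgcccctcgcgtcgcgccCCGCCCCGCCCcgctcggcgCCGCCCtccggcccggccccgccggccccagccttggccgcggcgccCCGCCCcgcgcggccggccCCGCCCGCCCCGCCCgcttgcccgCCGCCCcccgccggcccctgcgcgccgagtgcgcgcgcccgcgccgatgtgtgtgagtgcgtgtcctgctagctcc
Kmt2a (chr9:44881240-44881539, minus strand): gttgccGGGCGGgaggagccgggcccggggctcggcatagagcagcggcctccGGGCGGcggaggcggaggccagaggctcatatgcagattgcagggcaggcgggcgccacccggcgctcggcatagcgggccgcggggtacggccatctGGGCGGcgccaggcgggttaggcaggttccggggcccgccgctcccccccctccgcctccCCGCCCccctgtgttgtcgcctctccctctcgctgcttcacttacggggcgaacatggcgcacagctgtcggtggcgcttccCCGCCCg
Kdm5b (chr1:134559928-134560227, plus strand): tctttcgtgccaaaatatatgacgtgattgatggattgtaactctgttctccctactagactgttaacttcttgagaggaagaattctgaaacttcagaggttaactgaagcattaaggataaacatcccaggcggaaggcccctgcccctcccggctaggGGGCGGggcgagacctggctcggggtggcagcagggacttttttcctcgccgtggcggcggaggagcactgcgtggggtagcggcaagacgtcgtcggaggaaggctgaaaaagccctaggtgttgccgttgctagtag
Kdm1a (chr4:136602674-136602973, minus strand): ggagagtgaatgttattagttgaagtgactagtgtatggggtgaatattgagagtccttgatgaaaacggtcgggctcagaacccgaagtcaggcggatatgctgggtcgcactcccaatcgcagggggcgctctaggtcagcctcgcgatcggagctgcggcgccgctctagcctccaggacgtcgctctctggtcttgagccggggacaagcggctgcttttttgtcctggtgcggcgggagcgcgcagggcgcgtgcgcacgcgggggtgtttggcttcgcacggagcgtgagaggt

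The *Kmt2c* sequence had a GC share of 88.0%, at the 99.99th percentile of the 32851 RefSeq promoters, whose median was 52.7%. It held 56 CpG dinucleotides, against a median of 7. The GC share was 75.7% at *Kmt2a*, 73.7% at *Setd1a*, 62.7% at *Kmt2d*, 61.3% at *Kdm1a* and 54.7% at *Kdm5b*, all above that median. GGGCGG, counted on both strands with overlapping matches counted separately, occurred 12 times at *Kmt2c*, 5 times at *Kmt2a*, 4 times at *Kmt2d* and once at *Kdm5b*, and not at *Setd1a* or *Kdm1a*. It is held by 35.7% of all RefSeq promoters, and 7 of them (0.0213%), *Kmt2c* included, hold 12 or more matches. CCAAT (NFY), held by 37.4%, occurred at *Kdm1a* alone of the 6. CCGGAAGT (ETS, 3.89% of promoters), GCGCATGC (NRF1 core, 2.71%), ATGGCGGC (YY1 core, 2.24%) and TATAAA (TBP, 13.6%) occurred in none of the 6. None of these motifs contains another. A match describes letters and not binding.

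**Figure D1:**
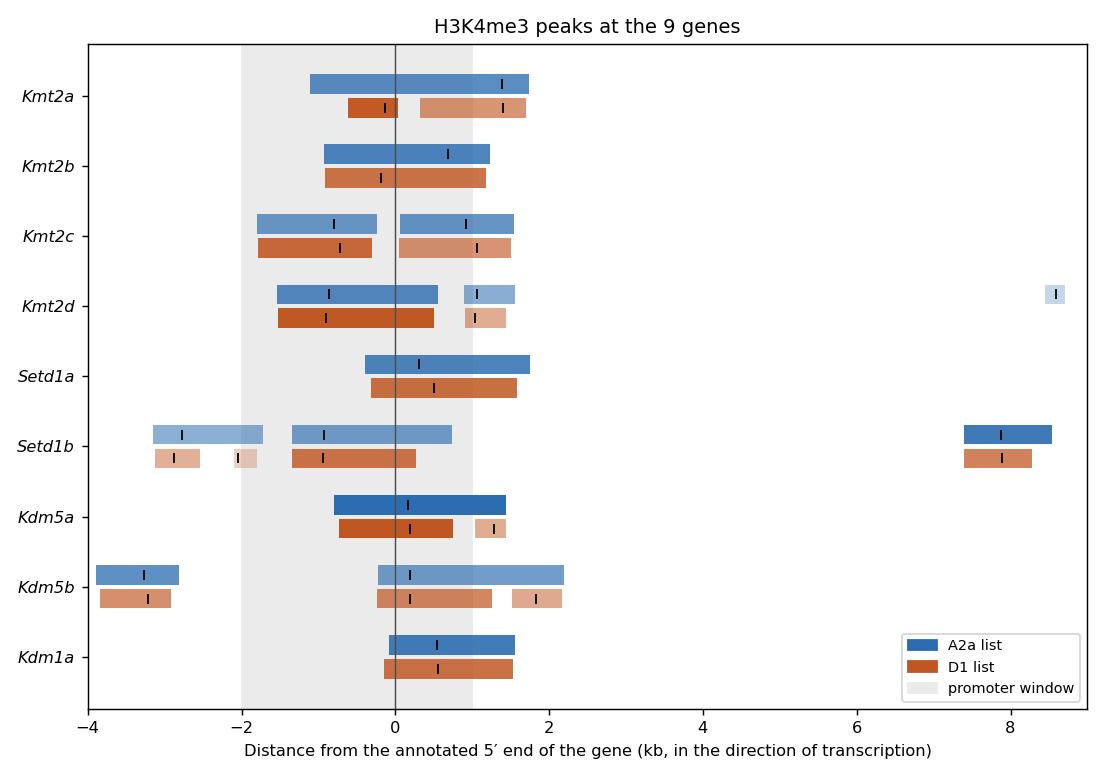
H3K4me3 peaks of the A2a (blue) and D1 (orange) lists at the 9 genes, plotted by distance in kb from the annotated 5′ end in the direction of transcription. Bars span the peaks, darker bars rank higher by −log10 q within their list, ticks are summits, and the grey band is the promoter window. At *Kmt2c* the start site falls between peaks in both lists, and at *Kmt2a*, *Kdm5a* and *Kdm5b* 1 A2a peak faces 2 D1 peaks.

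A promoter peak was one that overlapped the window from 2 kb before to 1 kb after the TSS, the annotated 5′ end of the gene. By this rule 9 of 9 genes had an H3K4me3 peak in A2a and 9 of 9 in D1, where 59.3% and 56.8% of autosomal protein-coding genes had one. Peaks were ranked within their list by the −log10 q-value of the peak caller, as the percentage of peaks at or below the value. The median percentile of the 9 strongest promoter peaks was 74.2 in A2a and 79.8 in D1, and that of all genes with a promoter peak was 72.8 and 71.6. In A2a the peaks of the 9 genes had a lower fold enrichment over local background and were wider than at the usual promoter. The median fold enrichment was 4.95, against 7.67 for all genes with a promoter peak, and the median width 2141 bp, against 1622 bp. Their median −log10 q was not lower, at 132.4 against 129.1. In D1 the medians were 7.003 against 7.52 in fold enrichment and 1612 against 1518 bp in width.

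**Figure D2:**
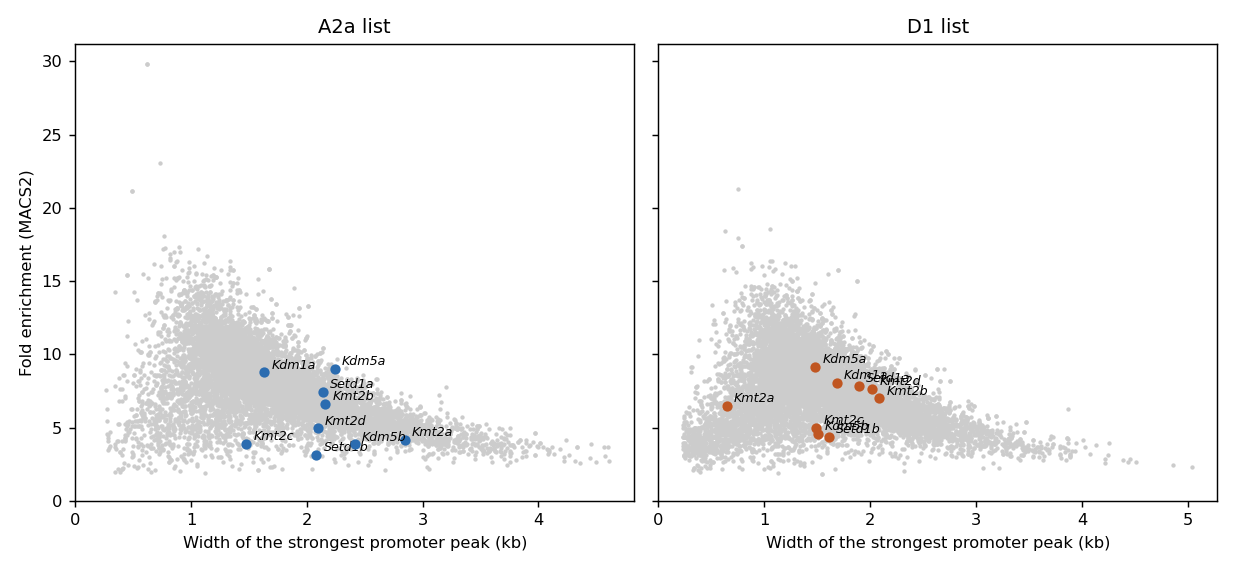
Fold enrichment against width in kb of the strongest promoter peak, for all autosomal protein-coding genes with a promoter peak (grey) and the 9 genes (coloured), in the A2a list (left) and the D1 list (right). *Kmt2a* has the widest peak of the 9 in A2a, 2.85 kb, and the narrowest in D1, 0.647 kb.

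*Kmt2a*, the founding member of the family and the gene broken by leukaemia translocations, lies on chr9:44803355-44881296 (minus strand). In A2a a peak of 2846 bp, wider than 97.1% of the list, ran from 1.11 kb before to 1.74 kb after the TSS, and had a fold enrichment of 4.17 and a percentile of 70.3. In D1 the same stretch held 2 peaks. The one over the TSS was 647 bp wide with a fold enrichment of 6.47 and a percentile of 96.7, and the one in the first part of the gene was 1388 bp wide with a fold enrichment of 3.54 and a percentile of 49.8. The gap between them, chr9:44880979-44881266, was 288 bp long, began 30 bp after the TSS and had a GC share of 81.2%. The gene *AC061963.1* has a transcript start within 500 bp of the upstream peak. The high rank in D1 thus belonged to the part of the A2a peak that lies at and before the TSS.

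*Kmt2b*, the closest paralog of *Kmt2a*, lies on chr7:30568858-30588726 (minus strand) and is the shortest of the 9 genes at 19.9 kb. Its promoter had 1 peak per list, of 2158 bp in A2a and 2087 bp in D1. The fold enrichment was 6.63 and 7.003, and the percentile 77.6 and 76.2. The peak thus had nearly the same extent and rank in both lists, but its summit was 687 bp after the TSS in A2a and 187 bp before it in D1.

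*Kmt2c*, which with *Kmt2d* encodes the catalytic subunits that place H3K4me1 at enhancers, lies on chr5:25271798-25498783 (minus strand) and is the longest of the 9 at 227.0 kb. The TSS was under no peak in either list although peaks lay close on both sides. In A2a the upstream peak had a fold enrichment of 3.66 and a percentile of 59.2, and the downstream peak 3.88 and 63.5. In D1 the upstream peak had a fold enrichment of 4.96 and a percentile of 85.1, and the downstream peak 3.44 and 51.2. The upstream peak thus ranked higher and the downstream peak lower in D1 than in A2a, and the strongest peak was the downstream one in A2a and the upstream one in D1. The gap was chr5:25498721-25499015 in A2a (295 bp, GC share 86.4%) and chr5:25498733-25499083 in D1 (351 bp, 87.7%). Of the 300 bases of the printed promoter sequence, 18 were under an A2a peak and 0 under a D1 peak. The antisense lincRNA *4831440E17Rik* starts 284 bp before the *Kmt2c* TSS.

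A TSS in such a gap was found at 1 of the 9 genes in each list, where it occurred at 0.746% of genes with a promoter peak in A2a and 1.33% in D1. Base composition moved with it across genes. Among genes with a RefSeq promoter GC share of at least 80%, the TSS was in a gap at 7.69% in A2a and 17.0% in D1, and among genes under 80% at 0.526% and 0.895%. At 300 of 300 bases under A2a peaks and 273 under D1 peaks, the promoter sequence of *Kmt2a* was covered in A2a and nearly covered in D1. The sequence of *Kmt2d* was covered fully in both. The part of base composition in the gaps at *Kmt2c* and *Kmt2a* was not tested.

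*Kmt2d*, on chr15:98831669-98871204 (minus strand), had 2 promoter peaks in both lists. The stronger one covered the TSS. Its fold enrichment was 4.95 in A2a and 7.65 in D1, its percentile 74.2 and 98.6, and its width was 2095 and 2020 bp. Its summit lay 857 bp (A2a) and 902 bp (D1) before the TSS, towards the starts of the antisense lincRNA *5730414N17Rik*, 1440 bp before it, and of *Gm49437* on the same strand, 1409 bp before it. The weaker peak began about 0.9 kb inside the gene and had a percentile of 40.2 in A2a and 31.9 in D1. Past the 3′ end a peak at the start of the next gene, *Prkag1*, was at percentiles of 91.4 and 75.7 in A2a and D1. As at *Kmt2c*, the upstream signal ranked higher in D1 and the downstream signal did not.

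*Setd1a* and *Setd1b* encode the catalytic subunits of the SETD1 complexes, which place most H3K4me3 at promoters. *Setd1a*, on chr7:127776670-127800122 (plus strand), had 1 peak in each list. The fold enrichment was 7.46 in A2a and 7.84 in D1, and the percentile 77.9 and 79.8. The promoter of *Setd1a* was thus alike in rank in both lists, and its RefSeq promoter sequence was fully under the peaks. That sequence, chr7:127777139-127777438, lies inside the gene, at a later start than the 5′ end used for the peaks. Its GC share and cover describe that later start. A weak peak past the 3′ end lay at a start of *Hsd3b7*, with percentiles of 31.4 and 21.1.

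*Setd1b*, on chr5:123142193-123168629 (plus strand), had the lowest fold enrichment of the 9 genes in both lists. The peak over the TSS had a fold enrichment of 3.12 and a percentile of 54.0 in A2a, and of 4.38 and 75.5 in D1. Its width was 2083 bp in A2a and 1612 bp in D1. Its summit lay 933 and 943 bp before the TSS, and the antisense lincRNA *AI480526* starts 527 bp before it. A further A2a peak, 3.15 to 1.73 kb before the TSS and near other starts of *AI480526* and of *4932422M17Rik*, reached into the window, with a percentile of 39.1. In D1 this stretch held a pair of separate peaks. The one 3.13 to 2.55 kb before the TSS, outside the window and near starts of both neighbours, had a percentile of 28.7. The one 2.099 to 1.796 kb before it, in the window and near starts of *AI480526* alone, had a percentile of 2.62.

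The strongest signal at *Setd1b* by fold enrichment was not at its promoter. A peak in an intron, 7.39 to 8.54 kb after the TSS in A2a and 7.40 to 8.28 kb in D1, had a fold enrichment of 14.1 and 10.5. By fold enrichment this was at the 98.9th percentile of the A2a list and the 93.5th of the D1 list. By −log10 q it had a percentile of 87.5 in A2a, above the 54.0 of the promoter peak. In D1 it had 65.1, below the 75.5 of the promoter peak. No annotated transcript start of *Setd1b* or any other gene lay within 500 bp of the intronic peak. Such peaks were common, at 35.6% of autosomal A2a peaks and 31.1% of D1 peaks. Of the peaks at the promoters and in the bodies of the 9 genes, 5 of 17 in A2a and 5 of 18 in D1 had no start within 500 bp. Besides the one at *Setd1b*, these had percentiles of 40.2 or less. They were the weaker downstream peaks of *Kmt2d*, *Kdm5a* and *Kdm5b*, an exonic peak 8.45 kb inside *Kmt2d* seen in A2a alone (percentile 3.65), and intronic peaks of *Kmt2a* about 15 kb inside the gene in both lists and 23.2 kb inside it in A2a alone, with percentiles of 5.54 or less.

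*Kdm5a* and *Kdm5b* encode demethylases of H3K4me3. *Kdm5a*, on chr6:120364124-120444574 (plus strand), had the highest-ranking promoter peak of the 9 in both lists. The fold enrichment was 9.01 in A2a and 9.14 in D1, and the percentile 99.6 and 99.0. The protein-coding gene *Ccdc77* starts on the opposite strand 250 bp inside *Kdm5a*, so both genes share this peak. It was 2240 bp wide in A2a and 1484 bp in D1, where a further weak peak followed 1.04 to 1.44 kb after the TSS.

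*Kdm5b*, on chr1:134560171-134635285 (plus strand), had a lower peak than its paralog in both lists. The fold enrichment was 3.86 in A2a and 4.56 in D1, and the percentile 54.9 and 61.5. The A2a peak was 2415 bp wide, and in D1 the same stretch held peaks of 1506 and 641 bp, separated by 258 bp. Outside the promoter window a peak stood 3.89 to 2.81 kb before the TSS in A2a, where the fold enrichment was 4.98, above that of the A2a promoter peak. In D1 it stood at 3.85 to 2.92 kb before the TSS, where the fold enrichment was 4.44. No annotated start lay within 500 bp of it.

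*Kdm1a*, whose product works with the CoREST proteins, lies on chr4:136550540-136602723 (minus strand). It had 1 peak per list, which began close to the TSS and ran into the gene. The fold enrichment was 8.78 in A2a and 8.06 in D1. The percentile was 86.2 and 77.9, the largest rank difference in favour of A2a among the 9. Of the 300 bases of the printed sequence, 129 were under the A2a peak and 200 under the D1 peak.

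The shapes of the peaks were counted beside their share over all genes. At least 2 peaks in the window were found at 3 of the 9 genes in A2a (*Kmt2c*, *Kmt2d*, *Setd1b*), against 3.21% of genes with a promoter peak, and at 4 of the 9 in D1 (the same 3 and *Kmt2a*), against 4.83%. The strongest A2a promoter peak met 2 or more D1 peaks at 3 of the 9 genes (*Kmt2a*, *Kdm5a*, *Kdm5b*), against 3.37%. The reverse, a D1 peak that met 2 or more A2a peaks, was found at 0 of the 9, against 0.440%. A peak wider than 90% of the list was found at 3 of the 9 genes in A2a (*Kmt2a*, *Kdm5a*, *Kdm5b*), against 16.8%, and at 0 of the 9 in D1, against 15.5%. Another gene started on the opposite strand in the promoter window of 5 of the 9 genes (*Kmt2b* with *Mir3569*, *Kmt2c*, *Kmt2d*, *Setd1b* and *Kdm5a*), against 20.7% of autosomal protein-coding genes. The last count took only the annotated 5′ end of each gene. Other transcript starts, such as that of *AC061963.1* at *Kmt2a*, were not used. All counts of this paragraph were chosen after the values were seen, and no test bears on them.

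Between the A2a and D1 lists, 4 of the 9 genes ranked at least 10 percentile points higher in D1, where 10.4% of genes with a promoter peak in both lists did. They were *Kmt2a* (70.3 in A2a and 96.7 in D1), *Kmt2d* (74.2 and 98.6), *Kmt2c* (63.5 and 85.1) and *Setd1b* (54.0 and 75.5), all methyltransferase genes. The methyltransferase genes *Kmt2b* (77.6 and 76.2) and *Setd1a* (77.9 and 79.8) were not among them. None of the 9 ranked at least 10 points higher in A2a, where 27.1% of genes did. These shares depend on which peaks are ranked. A rank among promoter peaks only was chosen after seeing the data. By it 5 of the 9 genes were at least 10 points higher in D1, against 21.1% of genes. They were the same 4 and the demethylase gene *Kdm5b*. In A2a 1 gene, *Kdm1a*, was at least 10 points higher, against 22.5%. Ranking by fold enrichment, and ranking equal numbers of the strongest peaks, also gave these 5 genes in D1 and none in A2a. Shares over all genes were not computed for those rankings. Equal numbers were reached by dropping A2a peaks alone, which by construction lowers the A2a percentiles and favours D1. By rank in the whole list, the median difference, D1 minus A2a, was 6.63 points for the 9 genes. For all 11788 genes with a peak in both it was -3.87 points. The 5 genes other than *Kmt2a*, *Kmt2d*, *Kmt2c* and *Setd1b* differed by -8.28 (*Kdm1a*) to 6.63 points (*Kdm5b*). At *Kmt2a* and *Kmt2c* the difference compares peaks of unlike extent, as described above.

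**Figure D3:**
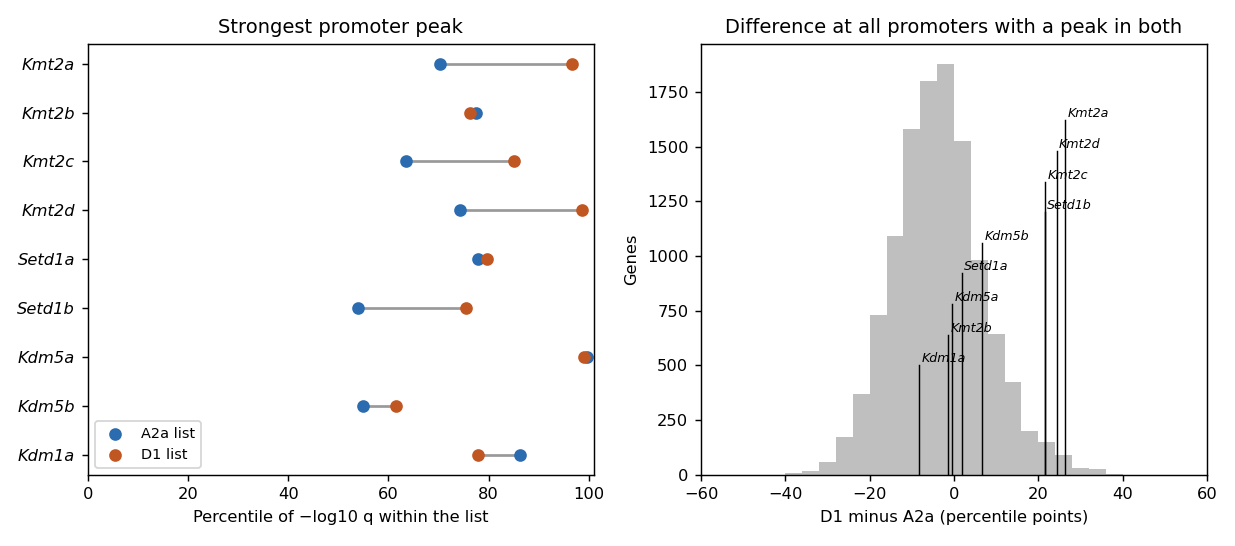
Left, percentile of the −log10 q of the strongest promoter peak within the A2a (blue) and D1 (orange) list for the 9 genes. Right, number of genes by D1 minus A2a difference in percentile points, for all genes with a promoter peak in both lists, with lines at the 9 genes. *Setd1b*, *Kmt2c*, *Kmt2d* and *Kmt2a* lie at 21.5 to 26.4 points, at the 97.9th to 99.3rd percentile of all differences.

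The 4 genes had other values in common. They were 4 of the 5 genes of the 9 with an A2a fold enrichment under 5, the fifth being *Kdm5b*. Of all genes with so low a fold enrichment, 16.7% ranked at least 10 points higher in D1, against 9.68% of those with at least 5 (0 of 4 among the 9). The cut of 5 lies just above the 4.95 of *Kmt2d*. Fold enrichment and rank come from the same A2a peak, so a low A2a value can favour a larger D1 minus A2a difference in rank. The contrast is thus not independent of the difference. The 4 genes were also 4 of the 5 genes with a D1 summit before the TSS, the fifth being *Kmt2b*. Of all genes with a D1 summit before the TSS, 15.8% ranked at least 10 points higher in D1, against 8.68% of the others (0 of 4 among the 9). That summit belongs to the peak chosen by the −log10 q that also sets the D1 rank. So this split is not independent of the difference either. A difference in depth between the pooled libraries cannot be told apart from the cell type here.

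The rank depends on the measure. By covered length of all peaks in the window, 2 of the 9 genes ranked at least 10 points higher in D1 (*Kdm1a* and *Kdm5b*), against 9.98% of genes with a promoter peak in both lists, and 2 in A2a (*Kmt2a* and *Kdm5a*), against 13.1%, and none of the 4 genes named above was among the former. The covered length in the window was 2108 bp in A2a and 1330 bp in D1 at *Kmt2a*, 2357 and 1817 bp at *Setd1b*, 2511 and 2442 bp at *Kmt2c*, and 2207 and 2115 bp at *Kmt2d*. Over all 11788 genes the median difference in covered length, D1 minus A2a, was -59 bp.

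No H3K27me3 island overlapped the promoter window of any of the 9 genes in the A2a or the D1 list. Islands were at 22.4% (A2a) and 15.8% (D1) of autosomal protein-coding promoters, and at 16.6% and 10.2% of those with an H3K4me3 promoter peak. The bodies of the 9 genes, 19.9 to 227.0 kb long, were without an island too. Of genes with an H3K4me3 promoter peak that are at least as long as *Kmt2b*, 27.1% in A2a and 19.7% in D1 had an island at the promoter or in the gene. An island list holds only stretches above the caller's threshold, and says nothing of lower H3K27me3.

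**Figure D4:**
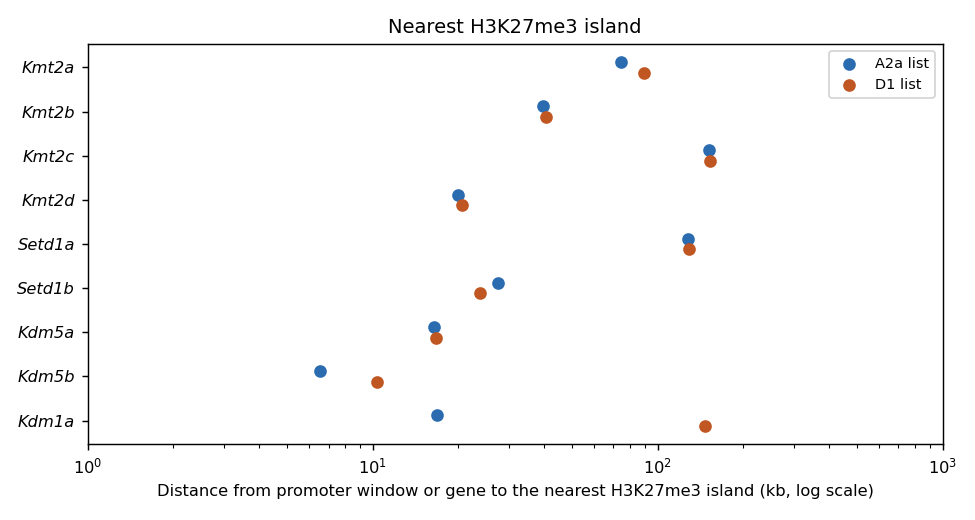
Distance in kb, on a log axis, from the promoter window or gene to the nearest H3K27me3 island for the 9 genes in the A2a (blue) and D1 (orange) lists. The nearest island was 6.52 kb away at *Kdm5b* in A2a, and at *Kdm1a* the distances were 16.9 kb in A2a and 147 kb in D1.

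The nearest islands lay over the same neighbouring genes in both lists except at *Kmt2a* and *Kdm1a*, and at *Kmt2c* they lay over no coding gene. *Kdm5b* was closest, with an island over *Syt2*, which encodes a synaptotagmin, 6.52 kb past the 3′ end in A2a (12 kb long, 977 reads) and 10.3 kb past it in D1 (5.4 kb, 222 reads). At *Kdm5a* an island over *Il17ra*, an interleukin receptor gene, lay 16.4 kb (A2a) and 16.6 kb (D1) past the 3′ end. Upstream of *Kmt2d* an island over *Dhh*, a hedgehog ligand gene, and *Rhebl1* lay 19.997 and 20.597 kb away. At *Setd1b* islands over *Psmd9* lay 27.6 and 23.8 kb past the 3′ end. At *Kmt2b* an island over *Etv2*, an ETS factor gene of the blood and endothelial lineages, lay 39.7 and 40.7 kb upstream.

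At *Kmt2a*, *Setd1a* and *Kmt2c* the nearest island was 74.4 kb or more away in both lists. *Kdm1a* differed most: a short A2a island over *Lactbl1* (2 kb long, 146 reads) lay 16.9 kb upstream, and in D1 the nearest was at *Ephb2*, 147 kb away. Measured from the promoter window alone, the median distance of the 9 genes was 53.0 kb in A2a and 58.9 kb in D1. For all genes with a promoter peak it was 32.3 and 57.8 kb. The D1 H3K27me3 samples have a source name that reads A2a, and were grouped as D1 by their titles, so that each statement setting A2a islands against D1 islands rests on the titles. The islands at neuron markers, given with the cell types at the end, differ between these lists. Read counts of the islands are not normalized between lists.

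The other genes of the pathway were read from a list of 34, with the shared core subunits of the methyltransferase complexes, subunits of single complexes, the CoREST partners of KDM1A, other reported H3K4 methyltransferases and readers of the mark. At the annotated 5′ end 29 of 34 had an H3K4me3 peak in A2a and 28 in D1, and 1 had an H3K27me3 island in each list. Of all autosomal protein-coding genes, 59.3% (A2a) and 56.8% (D1) had such a peak and 22.4% and 15.8% such an island. The median percentile of their strongest promoter peaks was 81.3 in A2a and 79.9 in D1. Of the 28 with a peak in both lists, 3 ranked at least 10 points higher in D1 and 7 in A2a. These counts are near the shares over all genes with a peak in both lists, 10.4% and 27.1%. The top-ranking gene of each group by the mean of both percentiles was *Rbbp5* among core subunits (90.7 in A2a and 99.1 in D1), *Psip1* among complex subunits (97.1 and 98.8), *Hdac2* among CoREST partners (95.3 and 98.6), *Setd7* among other methyltransferases (99.6 and 97.8) and *Ing2* among readers (99.2 and 99.7).

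The pathway genes without a peak at the annotated 5′ end mostly had one at a later transcript start. *Ash2l* and *Dpy30*, core subunits of all these complexes, had none at the 5′ end in either list. The peak of *Ash2l* had its summit 6.75 kb (A2a) and 6.96 kb (D1) inside the gene, with percentiles of 90.05 and 92.30. That of *Dpy30* lay 7.44 and 7.41 kb inside, with percentiles of 95.2 and 90.4. *Hcfc2* had its summit 3.66 and 3.76 kb inside (70.4 and 59.2), and *Phf21a*, a CoREST partner that reads unmethylated H3K4, 91.2 and 92.5 kb inside (79.1 and 52.6). *Rcor2* had a peak in both lists with a summit 1.66 and 1.67 kb inside, which reached the window in A2a and not in D1. With any annotated transcript start, 33 of 34 genes had a peak in each list, and the one without was *Smyd1*, a gene of heart and skeletal muscle.

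*Smyd2*, a methyltransferase of histone and other substrates, was the only gene of the 34, and with the 9 the only one of 43, with both marks at the promoter. Its H3K4me3 peak had percentiles of 48.8 in A2a and 37.4 in D1. The A2a island over it spanned 194.2 kb and held 19931 reads, and the D1 island spanned 98.8 kb and held 6827. Islands at the promoter or anywhere in the gene were found at 4 of 34 pathway genes in A2a and 3 in D1 (0 of the 9 in both), against 30.3% and 22.9% of all autosomal protein-coding genes.

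The genes most like the 9 were sought by distance from the median of the 9 over 6 percentiles (fold enrichment, −log10 q and width of the strongest promoter peak, in both lists), among genes without a promoter island. *Iffo1* (11.9 percentile points away), *Me2* (11.9) and *Plxdc1* (14.1) were nearest. The 9 genes themselves lay 24.9 (*Kmt2d*) to 64.9 points (*Kdm5a*) from their own median.

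The cell types of the lists were checked by marker genes, 4 for each class. For the A2a neuron markers *Adora2a*, *Drd2*, *Penk* and *Gpr6* a promoter island was listed at 2 of 4 in A2a and 4 of 4 in D1, and for the D1 neuron markers *Drd1*, *Pdyn*, *Tac1* and *Chrm4* at 4 of 4 in A2a and 3 of 4 in D1. *Drd1*, the D1 receptor gene, lay under an island of 16.8 kb in A2a and 1.8 kb in D1, *Pdyn* under 39.6 and 1 kb, and *Tac1* under 61 and 2.8 kb, and *Chrm4* had islands, 4.8 kb long at most, in A2a alone. *Adora2a*, the A2a receptor gene, had none in A2a and one of 45 kb in D1, *Gpr6* none and 21.8 kb, *Drd2* 2.6 and 7.8 kb, and *Penk* 3.4 and 23.8 kb. The islands of the list titled D1 were thus shorter or not listed at all 4 D1 markers and longer at all 4 A2a markers, as its title has it and not its source name. Promoter H3K4me3 peaks were listed at 4 of 4 A2a markers and 3 of 4 D1 markers in both lists, so that their presence did not separate the lists. Their percentiles differed. At *Adora2a* the peak stood at 90.6 in the A2a list and 53.4 in the D1 list, and at *Drd1* it stood at 4.04 and 43.6. Promoter H3K4me3 peaks were listed at 3 and 2 of 4 oligodendrocyte markers, 1 and 1 of 4 astrocyte markers, 1 and 0 of 4 microglia markers and 1 and 2 of 4 cortical excitatory neuron markers, in A2a and D1. The part of such other cells in the peaks of the 9 genes was not tested.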

How the data were processed

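CnR libraries of A2a and D1 MSN nuclei were analysed from 4 lists, each made by the authors and taken as pooled from 2 replicates. The other 20 samples of the series were not analysed here. Per the authors, reads were aligned by Bowtie2 (version 2.1.0) to mm10 and filtered with SAMtools (version 0.1.19) and Picard, and H3K4me3 peaks were obtained from MACS2 and H3K27me3 islands from SICER against a control that the sources used here do not name. The deposited peak values are a fold enrichment over local background (a ratio), a −log10 q and a score, which was not used. The deposited island value is a count of reads, not normalized. The lists held 22551 A2a and 20080 D1 peaks and 60191 and 45760 islands. Library totals are not in them, so the depth behind a value is unknown.

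Coordinates count from 1 on mm10 (GRCm38). Genes were from GENCODE vM21. Peaks or islands counted with an overlap of at least 1 bp. The overlap and distance steps were run in Python 3.11.15 with numpy 2.4.6, and tested on simulated data. No count model or test was run, since a group is 1 pooled list. The members, the gene lists and the counts reported were chosen with earlier results of these data known. Genes were named by rule: the 9 genes; pathway genes without a promoter peak or with a promoter island in a list, and the top gene of each group; the 3 genes most like the 9; and genes starting in a promoter window. The genes under the nearest islands, those with a start near a peak and the markers were added to these. Alternatives were other windows, starts, thresholds, overlaps and rankings, and 1, the rank among promoter peaks only, was added after seeing the data.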

Additional observations from a re-analysis of the deposited data

How the results depend on the processing

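Of 72 values recomputed, 56 stayed within 1.5 times (counts), within 1 percentile point (medians) or within the 95% Wilson interval (shares). Among them was every count of the 9 genes with a promoter peak or with an island. Several of these counts could not have moved. A count of 0 islands cannot rise under a longer minimum length, a larger overlap or a window inside the main one. A count of 9 of 9 genes with a peak cannot change when more transcript starts are allowed. The strongest promoter peaks of the 9 genes had a −log10 q of at least 74.3 in A2a and 70.1 in D1. A cut at 5 thus could not move their counts, nor their median percentiles, which kept the ranks of the full lists. Equal numbers of the strongest peaks could not move the D1 count or median, since the D1 list stayed whole. Ranking by fold enrichment moved the median percentile of the 9 genes to 28.2 (A2a) and 58.8 (D1), and the median difference to 13.5 points. Equal numbers of the strongest peaks gave 71.1 in A2a and a difference of 12.2 points. This setting cut the A2a list to its 20080 strongest peaks and left the D1 list whole. By construction that lowers the percentiles of the remaining A2a peaks at all genes. The median difference over all genes was not computed with it. Covered length gave 2 genes at least 10 points higher in D1 and 2 in A2a, and a difference of 0.30 points. The rank among promoter peaks only, added after seeing the data, gave 1 gene higher in A2a (*Kdm1a*), 5 in D1 and a difference of 14.8 points. With this rank 21.1% of all genes were at least 10 points higher in D1 and 22.5% in A2a. Any transcript start gave 2 pathway genes with an island in A2a and 2 in D1 (*Smyd2* and *Hmg20b*). With all 51229 annotated autosomal genes as background, 31.5% (A2a) and 29.9% (D1) had a promoter peak and 20.6% and 14.0% an island. The cause of the other shifts was not tested.

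No paired analysis was possible because there is 1 list per group, and for the same reason no replicate was left out in turn. Depth is unknown, and a peak or island that is not in 1 list does not show absence of the mark.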
